A study of Arabidopsis thaliana with 21 samples.

Results

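The step from 2 to 5 h of high light was examined in whole rosette shoots of Arabidopsis thaliana accession Col-0, a wild-type laboratory strain. The 6 libraries described are the 3 labelled T2H and the 3 labelled T5H, taken by their labels from the 21 libraries of the series, and every measured gene was compared between them. Plants were 21 days old and soil-grown, kept at 22 °C in days of 16 h and nights of 8 h, and were moved from a night in closed, aerated chambers into LED light of 500 µE for 2 h (T2H) or 5 h (T5H). The 3 T2L and 3 T5L libraries, from plants given 100 µE of the same light for the same 2 and 5 h, served as the comparison. The labels name no transgene or mutation in any group, and the study's title concerns the transcriptional control of enzymes that high light degrades. Samples are described as biological triplicates, without the number of plants in each being stated. The p-values rest on the spread within triplicates, estimated over all 7 groups of the series, and this spread may be partly technical. Within the 6 high-light libraries, longer exposure and a later hour of the day cannot be told apart. The standard-light pair covers the same hours of the day.

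A leaf passes through several programmes in its first hours of light. The circadian clock is a loop in which the morning factors CCA1 and LHY repress genes of the afternoon and evening, many of which carry a short promoter sequence called the evening element, and in which the pseudo-response regulators (PRR genes) in turn repress CCA1 and LHY. Chloroplasts store part of the day's carbon as starch, which is broken down at night by enzymes whose genes are under clock control. Excess light brings early light-induced proteins, flavonoids, ferritins and antioxidant enzymes, and proteins that enter the secretory pathway are folded by chaperones of the endoplasmic reticulum.

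Total counts were 9852801 to 16459582 in the 6 libraries, and a floor of 3 counts in 1 library was 0.182 to 0.304 CPM (counts per 1000000). Of the 19626 loci that passed the filter on low counts, 3166 changed between 2 and 5 h of high light at an adjusted p under 0.05, which is 16.1% of those tested. Transcripts of 1741 loci rose (8.87%) and those of 1425 fell (7.26%). A rise of at least 4-fold was fitted for 291 of them and a fall of that size for 206. For 2798 loci (14.3%) the change passed the test and the 3 libraries of T5H did not overlap with the 3 of T2H. Without regard to the test, 5024 loci (25.6%) were free of overlap. The median log2 change over all loci tested was 0.01. In rosette tissue a lower level can come from fewer cells of a type or from less RNA per cell, and these cannot be told apart.

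T5H replicate 3 stood apart. Ribosomal RNA took 32.9% of its counts, against 0.0720 and 0.0423% in the other T5H libraries and 0.295, 0.0752 and 4.98% in T2H. Chloroplast genes held 47.5% of its protein-coding counts, against 22.8 and 28.6% in T5H replicates 1 and 2 and 32.2 to 43.9% in T2H. Without it 4537 of the same loci passed the test. Of the 3166 calls, 2856 held without it, 310 were lost and none changed direction. List counts that it moved by over 1.5 times are given below with and without it. Mesophyll markers summed to 15550 to 25510 CPM in T2H and 8829 to 27930 CPM in T5H, and none of these 5 markers passed the test. Guard cell markers summed to 27.8 to 29.1 CPM in T2H and 33.5 to 38.0 CPM in T5H, higher in every T5H library, and dividing cell markers to 39.4 to 44.5 CPM in T2H and 25.0 to 34.0 CPM in T5H, lower in every T5H library. Without T5H replicate 3, 1 mesophyll marker rose, as did 3 epidermis and trichome markers and 1 guard cell marker, and 1 dividing cell marker fell. Of the root markers, CASP1 and COBL9 were at 0 in all 6 libraries. Among the tested markers of guard cells, vasculature, epidermis, root and dividing cells, with all libraries in the fit, only the cyclin gene CYCB1;2 changed, falling from 9.08 to 3.23 CPM (-1.47 ± 0.31, adjusted p = 0.00146), and the part of cell composition in the results was not tested.

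Clock genes of the morning were low and those of the afternoon high after 5 h. PRR5 (AT5G24470, chromosome 5, 8356204 to 8358546), the afternoon repressor of CCA1 and LHY, was measured at 0.0671, 0.0688 and 0.316 CPM after 2 h and 103, 98.7 and 76.5 CPM after 5 h. It was near or under the counting floor in all 3 early libraries and high in all 3 late ones (log2 fold change with its SE 9.26 ± 0.43, adjusted p = 5.88e-13). LHY (AT1G01060, chromosome 1, 33365 to 37871) did the reverse, with 194, 195 and 193 CPM after 2 h and 6.42, 4.73 and 7.51 CPM after 5 h (-4.97 ± 0.28, adjusted p = 4.13e-12). Its partner CCA1 stood at 168, 169.9 and 135 CPM after 2 h and 15.4, 10.8 and 14.9 CPM after 5 h (-3.52 ± 0.27, adjusted p = 1.15e-09). The groups were far apart for all of these genes, as the plot of clock genes by library shows.

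**Figure D1:**
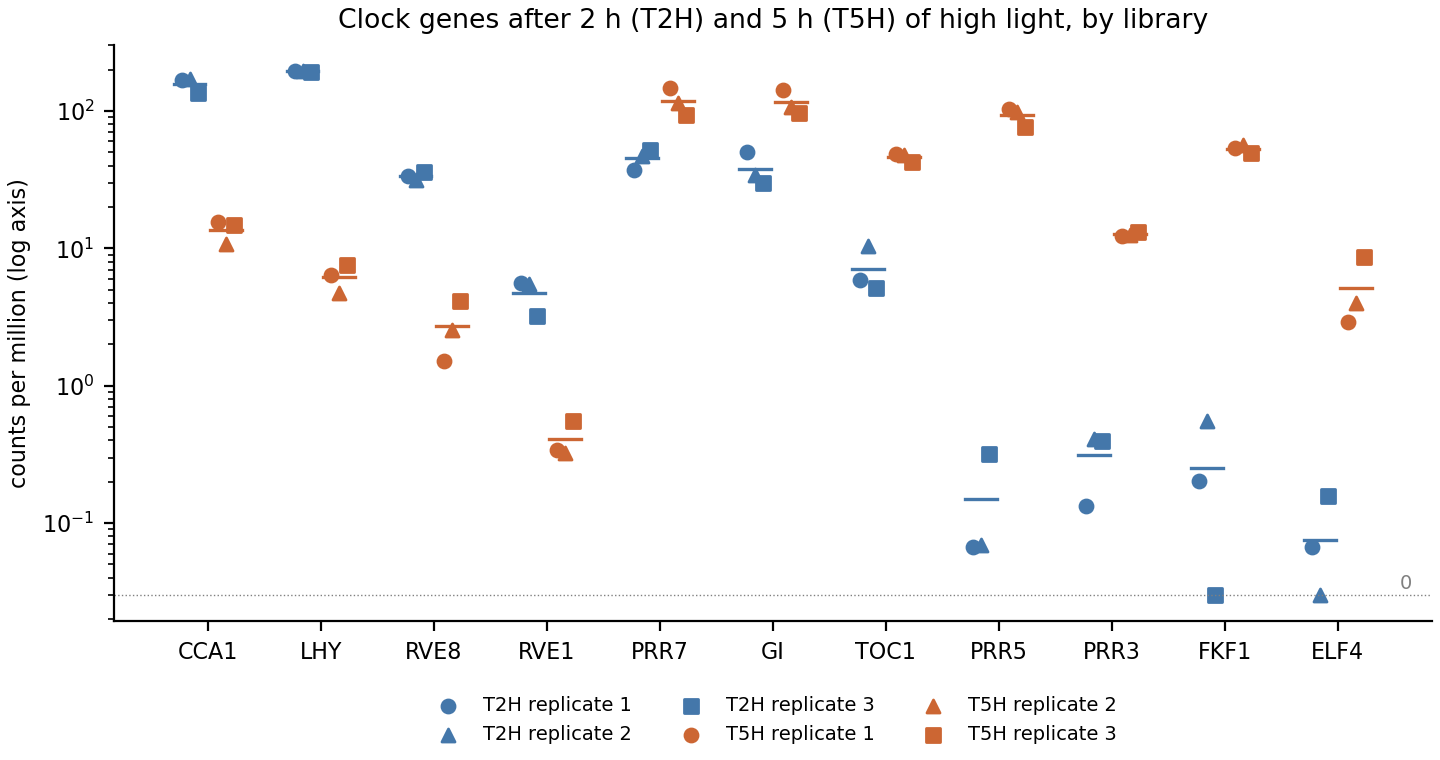
CPM on a log axis for 11 clock genes in each of the 6 high-light libraries, blue for T2H and orange for T5H, with a short line at each group mean and values of 0 drawn on the dotted line. CCA1, LHY, RVE8 and RVE1 lie lower in every T5H library than in every T2H library, and the other 7 genes lie higher.

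Of 10 morning clock genes, 7 fell and 1 rose, with a median log2 change of -2.20 against 0.01 over all loci. RVE8, an activator of evening genes, was at 33.4, 31.7 and 36.2 CPM after 2 h and 1.52, 2.53 and 4.17 CPM after 5 h (-3.73 ± 0.33, adjusted p = 1.65e-08). RVE1, which links the clock to growth, was at 5.57, 5.51 and 3.24 CPM after 2 h and 0.343, 0.326 and 0.556 CPM after 5 h (-3.62 ± 0.44, adjusted p = 1.93e-06). The exception in direction was PRR7, a repressor that peaks later in the morning than PRR9, at 37.2, 46.9 and 51.8 CPM after 2 h and 147, 115 and 93.2 CPM after 5 h (1.39 ± 0.21, adjusted p = 3.12e-05). Of the 12 afternoon and evening clock genes, 9 rose and none fell, with a median of 2.45. FKF1, a blue-light receptor that marks flowering repressors for destruction, was at 0.201, 0.551 and 0 CPM after 2 h and 54.1, 56.3 and 49.4 CPM after 5 h (7.63 ± 0.39, adjusted p = 4.13e-12). PRR3 was at 0.134, 0.413 and 0.395 CPM after 2 h and 12.4, 12.5 and 13.2 CPM after 5 h (5.31 ± 0.47, adjusted p = 2.4e-08). Both were close to the floor after 2 h and far above it after 5 h. TOC1, the evening repressor of the loop, was at 5.90, 10.3 and 5.14 CPM after 2 h and 48.9, 48.1 and 42.7 CPM after 5 h (2.71 ± 0.24, adjusted p = 1.32e-08). GI, which stabilises FKF1 and its relative ZTL, was at 50.4, 33.9 and 29.7 CPM after 2 h and 143, 108 and 97.2 CPM after 5 h (1.61 ± 0.19, adjusted p = 1.79e-06). ELF4, a subunit of the evening complex, held 3 counts in the T2H libraries together, so its rise is given as a ratio of summed counts, 59.8-fold with a 95% counting interval of 20.1 to 293.

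Genes known as outputs of the clock also changed. GRP7, an RNA-binding protein that oscillates under clock control, was at 2.35, 3.51 and 3.32 CPM after 2 h and 163, 181 and 206 CPM after 5 h (5.90 ± 0.49, adjusted p = 6.8e-08). Among 28 genes of the CDF and B-box families, which time flowering and shape light responses, 13 fell and 2 rose, with a median of -0.66. CDF1, a repressor of CONSTANS that FKF1 and GI remove, was at 24.9, 37.8 and 22.2 CPM after 2 h and 1.32, 2.36 and 3.89 CPM after 5 h (-3.59 ± 0.32, adjusted p = 1.62e-08). CDF2 fell from 3.72 to 0.376 CPM (-3.64 ± 0.52) and COL2, a relative of CONSTANS, fell from 32.2 to 2.45 CPM (-3.68 ± 0.28). BBX22, by contrast, rose from 8.61 ± 2.97 to 89.6 ± 18.8 CPM (3.38 ± 0.36, adjusted p = 8.4e-07). COR27, a clock gene also induced by cold, was at 0.537, 0.482 and 0.316 CPM after 2 h and 9.51, 7.09 and 8.62 CPM after 5 h (adjusted p = 4.1e-09).

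Promoters of genes that moved together are shown for the genes on which the clock result turns. Each is the 250 bases before the annotated gene start, read 5′ to 3′ on the gene's strand from the RefSeq TAIR10.1 genome. Capitals mark the evening element AAAATATCT or its reverse complement AGATATTTT in 7 genes that rose: clock genes, the clock output GRP7, and the starch genes ISA3 and PWD.
PRR5: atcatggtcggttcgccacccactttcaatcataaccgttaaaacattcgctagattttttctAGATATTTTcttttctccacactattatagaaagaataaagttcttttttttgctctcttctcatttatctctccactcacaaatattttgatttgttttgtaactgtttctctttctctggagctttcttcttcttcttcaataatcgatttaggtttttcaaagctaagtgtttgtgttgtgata
FKF1: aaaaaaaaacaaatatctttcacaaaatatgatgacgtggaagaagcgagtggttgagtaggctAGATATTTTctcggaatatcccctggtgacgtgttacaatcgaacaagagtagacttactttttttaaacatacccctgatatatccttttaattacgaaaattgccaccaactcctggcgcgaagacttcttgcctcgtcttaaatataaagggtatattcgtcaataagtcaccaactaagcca
TOC1: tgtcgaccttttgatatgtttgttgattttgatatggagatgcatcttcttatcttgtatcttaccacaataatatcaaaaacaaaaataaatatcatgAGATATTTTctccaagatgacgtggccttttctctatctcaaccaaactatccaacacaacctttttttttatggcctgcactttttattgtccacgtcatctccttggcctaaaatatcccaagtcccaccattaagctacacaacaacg
LUX: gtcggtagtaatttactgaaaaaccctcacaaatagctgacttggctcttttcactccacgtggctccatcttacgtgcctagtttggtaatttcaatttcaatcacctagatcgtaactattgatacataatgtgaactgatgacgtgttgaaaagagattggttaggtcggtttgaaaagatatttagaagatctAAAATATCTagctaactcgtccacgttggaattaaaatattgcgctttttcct
GRP7: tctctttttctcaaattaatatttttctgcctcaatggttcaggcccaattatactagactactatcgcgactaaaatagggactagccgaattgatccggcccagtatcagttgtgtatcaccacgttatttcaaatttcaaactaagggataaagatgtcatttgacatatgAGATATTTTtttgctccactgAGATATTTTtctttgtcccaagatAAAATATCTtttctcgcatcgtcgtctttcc
ISA3: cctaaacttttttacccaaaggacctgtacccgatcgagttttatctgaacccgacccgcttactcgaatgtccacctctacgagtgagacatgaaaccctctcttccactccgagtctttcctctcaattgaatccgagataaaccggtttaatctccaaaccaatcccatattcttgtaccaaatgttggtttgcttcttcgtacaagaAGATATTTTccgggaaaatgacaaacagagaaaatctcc
PWD: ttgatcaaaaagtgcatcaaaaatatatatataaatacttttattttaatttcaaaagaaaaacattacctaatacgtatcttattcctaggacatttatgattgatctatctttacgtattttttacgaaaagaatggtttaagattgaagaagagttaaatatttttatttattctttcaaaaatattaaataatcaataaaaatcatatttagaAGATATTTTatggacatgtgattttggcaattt
The windows are chr5:8358547-8358796 (minus strand) for PRR5, chr1:25508389-25508638 (plus) for FKF1, chr5:24674713-24674962 (plus) for TOC1, chr3:17182792-17183041 (plus) for LUX, chr2:9266558-9266807 (minus) for GRP7, chr4:5783659-5783908 (plus) for ISA3 and chr5:9261229-9261478 (plus) for PWD. GRP7 has 3 matches. No match of the evening element in the promoters of named genes overlapped a match of the other 5 motifs searched.

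For the morning genes that fell, capitals mark the G-box CACGTG, a palindrome bound by light-signalling factors of the bZIP and bHLH families.
CCA1: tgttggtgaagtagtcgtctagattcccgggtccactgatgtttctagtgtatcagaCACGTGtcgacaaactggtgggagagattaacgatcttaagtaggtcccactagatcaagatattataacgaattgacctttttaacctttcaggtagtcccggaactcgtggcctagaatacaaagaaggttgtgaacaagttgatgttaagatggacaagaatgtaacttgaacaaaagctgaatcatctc
LHY: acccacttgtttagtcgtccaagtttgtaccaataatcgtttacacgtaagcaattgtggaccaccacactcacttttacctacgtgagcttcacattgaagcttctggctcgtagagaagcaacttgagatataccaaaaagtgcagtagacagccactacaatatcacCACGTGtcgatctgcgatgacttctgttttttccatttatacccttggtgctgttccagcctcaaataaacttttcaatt
These windows are chr2:19245341-19245590 (plus strand) for CCA1 and chr1:37872-38121 (minus strand) for LHY. Neither holds an evening element, and none of the 10 morning clock promoters does in these 250 bases, whereas 5 of the 12 afternoon and evening clock promoters do (PRR5, TOC1, FKF1, LUX and BOA). PRR3, GI and ELF4 rose and hold none there. COL2 and the jasmonate list member JAZ10 fell and each hold a match. The promoters shown for the evening element are a selection of genes that rose and hold it.

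Over all genes, in a window from 250 bases before to 50 after the start and on both strands, 10.2% of the 1730 promoters of genes that rose held the evening element. The share was 1.36% among the 1399 promoters of genes that fell, 2.51% among tested genes with no call and 2.82% among all 27443 promoters. Of the 286 genes that rose at least 4-fold, 55 held it (19.2%). The telo-box AAACCCTAA, common in genes for ribosome synthesis, was found in 6.01% of promoters of genes that rose, 1.07% of those that fell, 3.10% of those with no call and 3.60% of all. In the 250 bases before the start alone it was in 2.54% of promoters of genes that rose, 2.11% of those with no call and 2.61% of all, so the share among genes that rose was not above that of all promoters there. The G-box was in 9.60% of promoters of genes that rose, 13.5% of those that fell, 8.51% of those with no call and 7.68% of all. Among genes with changes of at least 4-fold it was in 15.4% of those that rose and 15.3% of those that fell. PRR7 and LUX, which rose, also hold a G-box in the 250 bases before the start. Site II, TGGGCC, another sequence of genes for protein synthesis, was in 21.9% of promoters of genes that rose, 14.3% of those that fell, 19.6% of those with no call and 15.5% of all, and in 15.4% of those of genes that rose at least 4-fold. The W-box, TTGACC or TTGACT, was in 30.0% of promoters of genes that rose, 32.7% of those that fell, 33.0% of those with no call and 32.4% of all. For the heat shock element the shares were 0.694, 0.572, 0.516 and 0.481%. A match is a description of the sequence, and no factor's binding was measured.

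**Figure D2:**
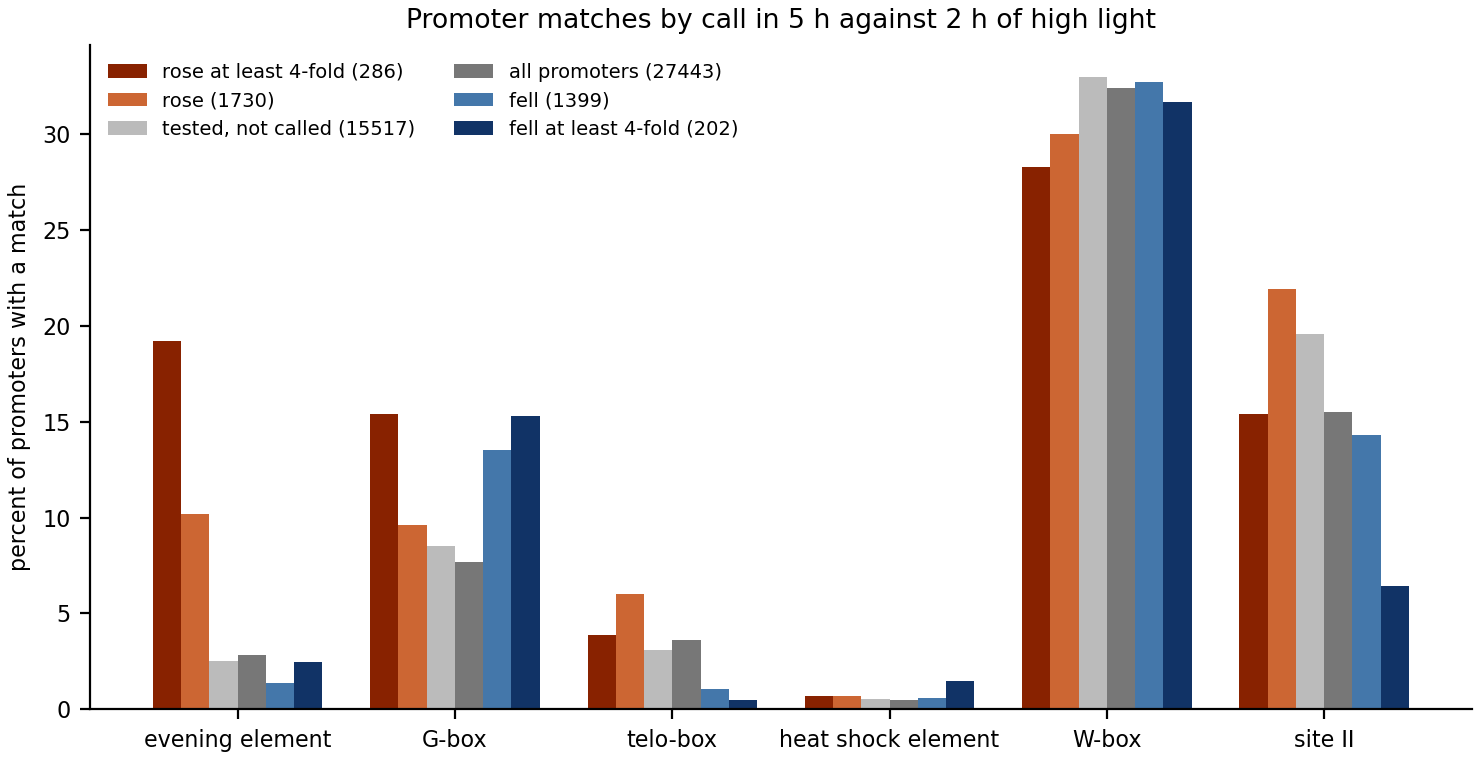
Percent of promoters with at least 1 match of each of 6 sequence motifs, for genes that rose, fell or had no call and for all promoters, with the number of promoters in each class in the legend. The evening element is at 19.2% among genes that rose at least 4-fold and 2.82% among all promoters, and the W-box lies at similar heights in all classes.

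Shares of members called are drawn for all 29 pathway lists. The endoplasmic reticulum chaperones had the largest share of members that rose, 87.5%. The morning clock had the largest share that fell, 70.0%, followed by the flavonoid enzymes with 53.8%.

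**Figure D3:**
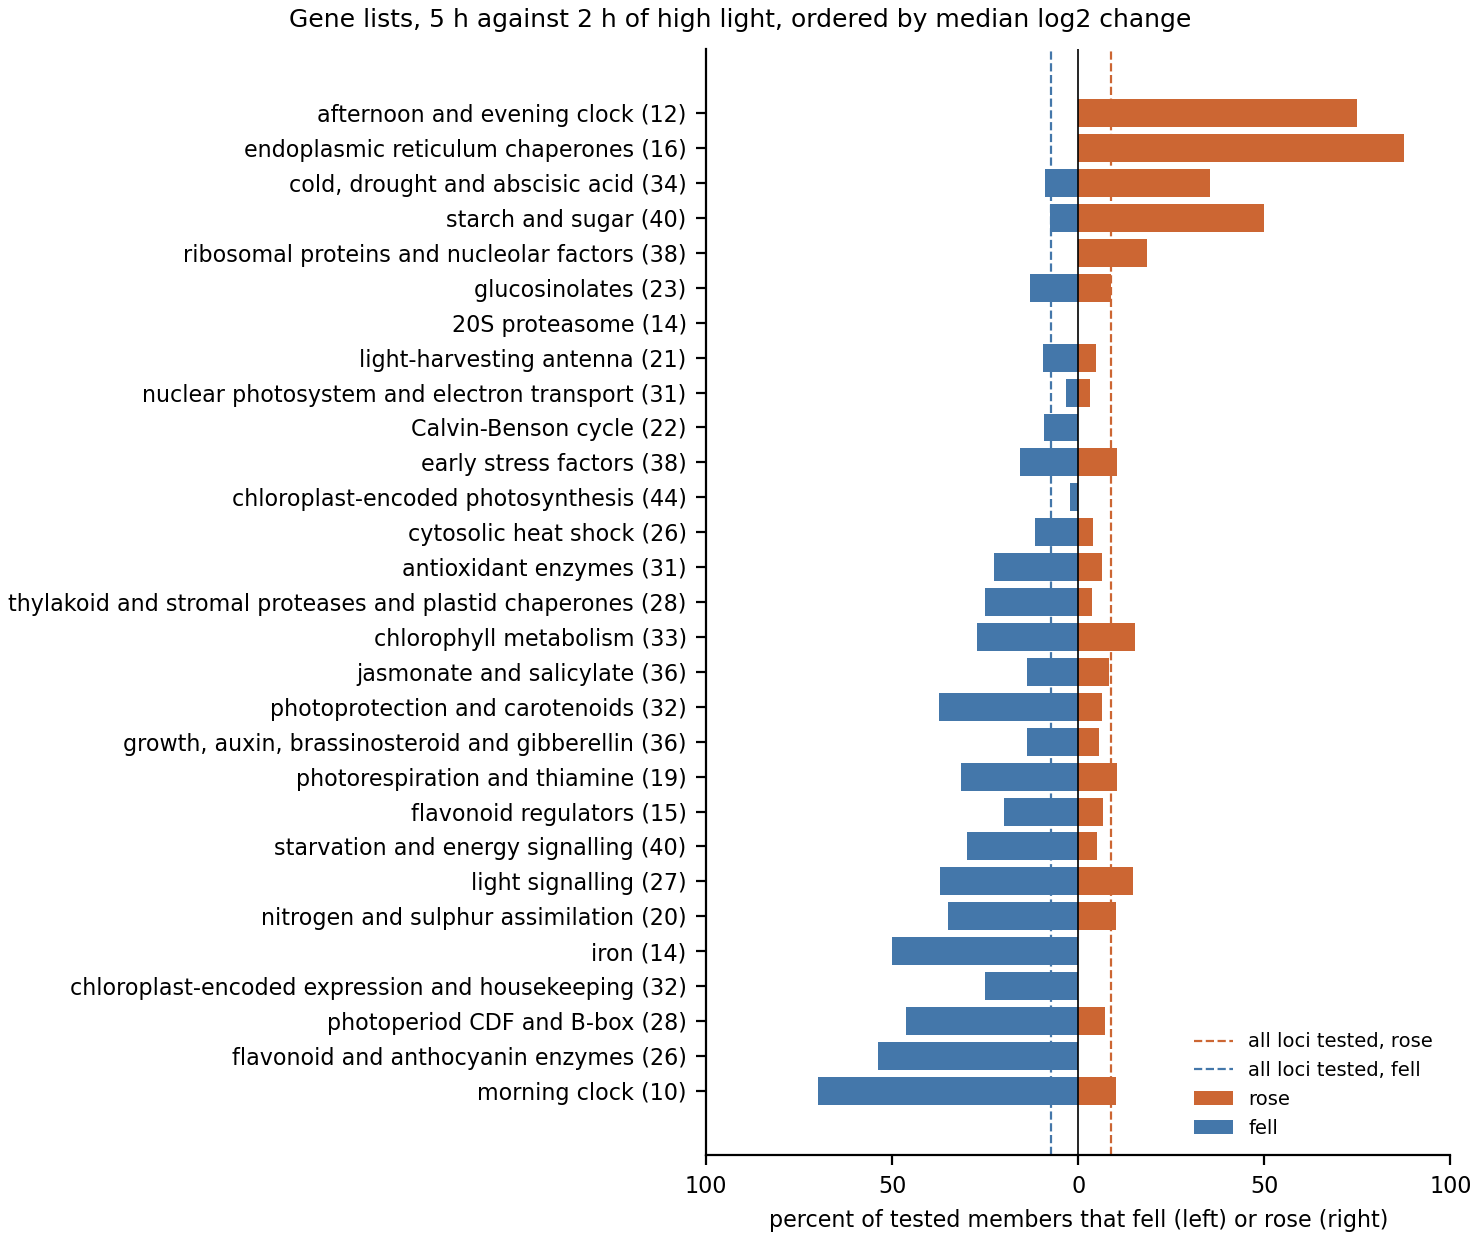
Percent of tested members of 29 gene lists that rose (orange, right) or fell (blue, left) between 2 and 5 h of high light, with the number tested in brackets and the shares over all loci tested (8.87 and 7.26%) as dashed lines. Bars for the evening clock, the endoplasmic reticulum chaperones and starch genes reach 50 to 87.5% on the right, and those for the morning clock and flavonoid enzymes pass 50% on the left.

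Of 40 starch and sugar genes, 20 rose, 3 fell and 17 had no call, with a median of 0.63. The list holds enzymes of synthesis and transporters as well as enzymes of breakdown. All 23 called genes were without overlap between the groups, beside 2798 of the 3166 loci called in all. PHS2, the cytosolic glucan phosphorylase that acts on maltose-derived glucans, was at 77.5, 60.4 and 60.9 CPM after 2 h and 1729.6, 1259.6 and 1013 CPM after 5 h (4.33 ± 0.22, adjusted p = 1.34e-12). ISA3, the debranching enzyme of starch breakdown whose promoter is shown above, was at 7.31, 6.68 and 7.27 CPM after 2 h and 131, 102 and 166 CPM after 5 h (4.23 ± 0.25, adjusted p = 1.01e-11). Other members were picked after their values were seen (GWD1, PWD, SEX4, DPE2, GBSS1 and BAM1). GWD1 and PWD, the kinases that phosphorylate starch and open it to amylases, rose from 111 to 757 CPM (2.77 ± 0.22) and from 26.3 to 150.0 CPM (2.51 ± 0.16). The phosphatase SEX4, which removes these phosphates, rose from 24.7 to 121 CPM (2.29 ± 0.19), and DPE2, which uses exported maltose, from 73.7 to 376 CPM (2.35 ± 0.18). SBE2.1, a starch branching enzyme, was at 15.6, 16.7 and 9.88 CPM after 2 h and 133, 109 and 96.7 CPM after 5 h (3.00 ± 0.24, adjusted p = 3.13e-09). GPT2, the glucose 6-phosphate translocator that responds to light and sugar, was at 27.6, 18.1 and 23.56 CPM after 2 h and 101, 49.6 and 62.9 CPM after 5 h (1.63 ± 0.39, adjusted p = 0.00646). The genes that fell were BAM9, GBSS1 and BAM1. BAM9, a beta-amylase relative without known catalytic activity, was at 16.8, 24.6 and 16.5 CPM after 2 h and 0.196, 0.978 and 0.556 CPM after 5 h (-5.19 ± 0.39, adjusted p = 1.08e-09). GBSS1, which makes amylose, fell from 332 ± 35.4 to 109 ± 29.4 CPM (-1.60 ± 0.22), and BAM1, an amylase of guard cells and stressed leaves, from 87.7 to 32.5 CPM (-1.43 ± 0.24).

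**Figure D4:**
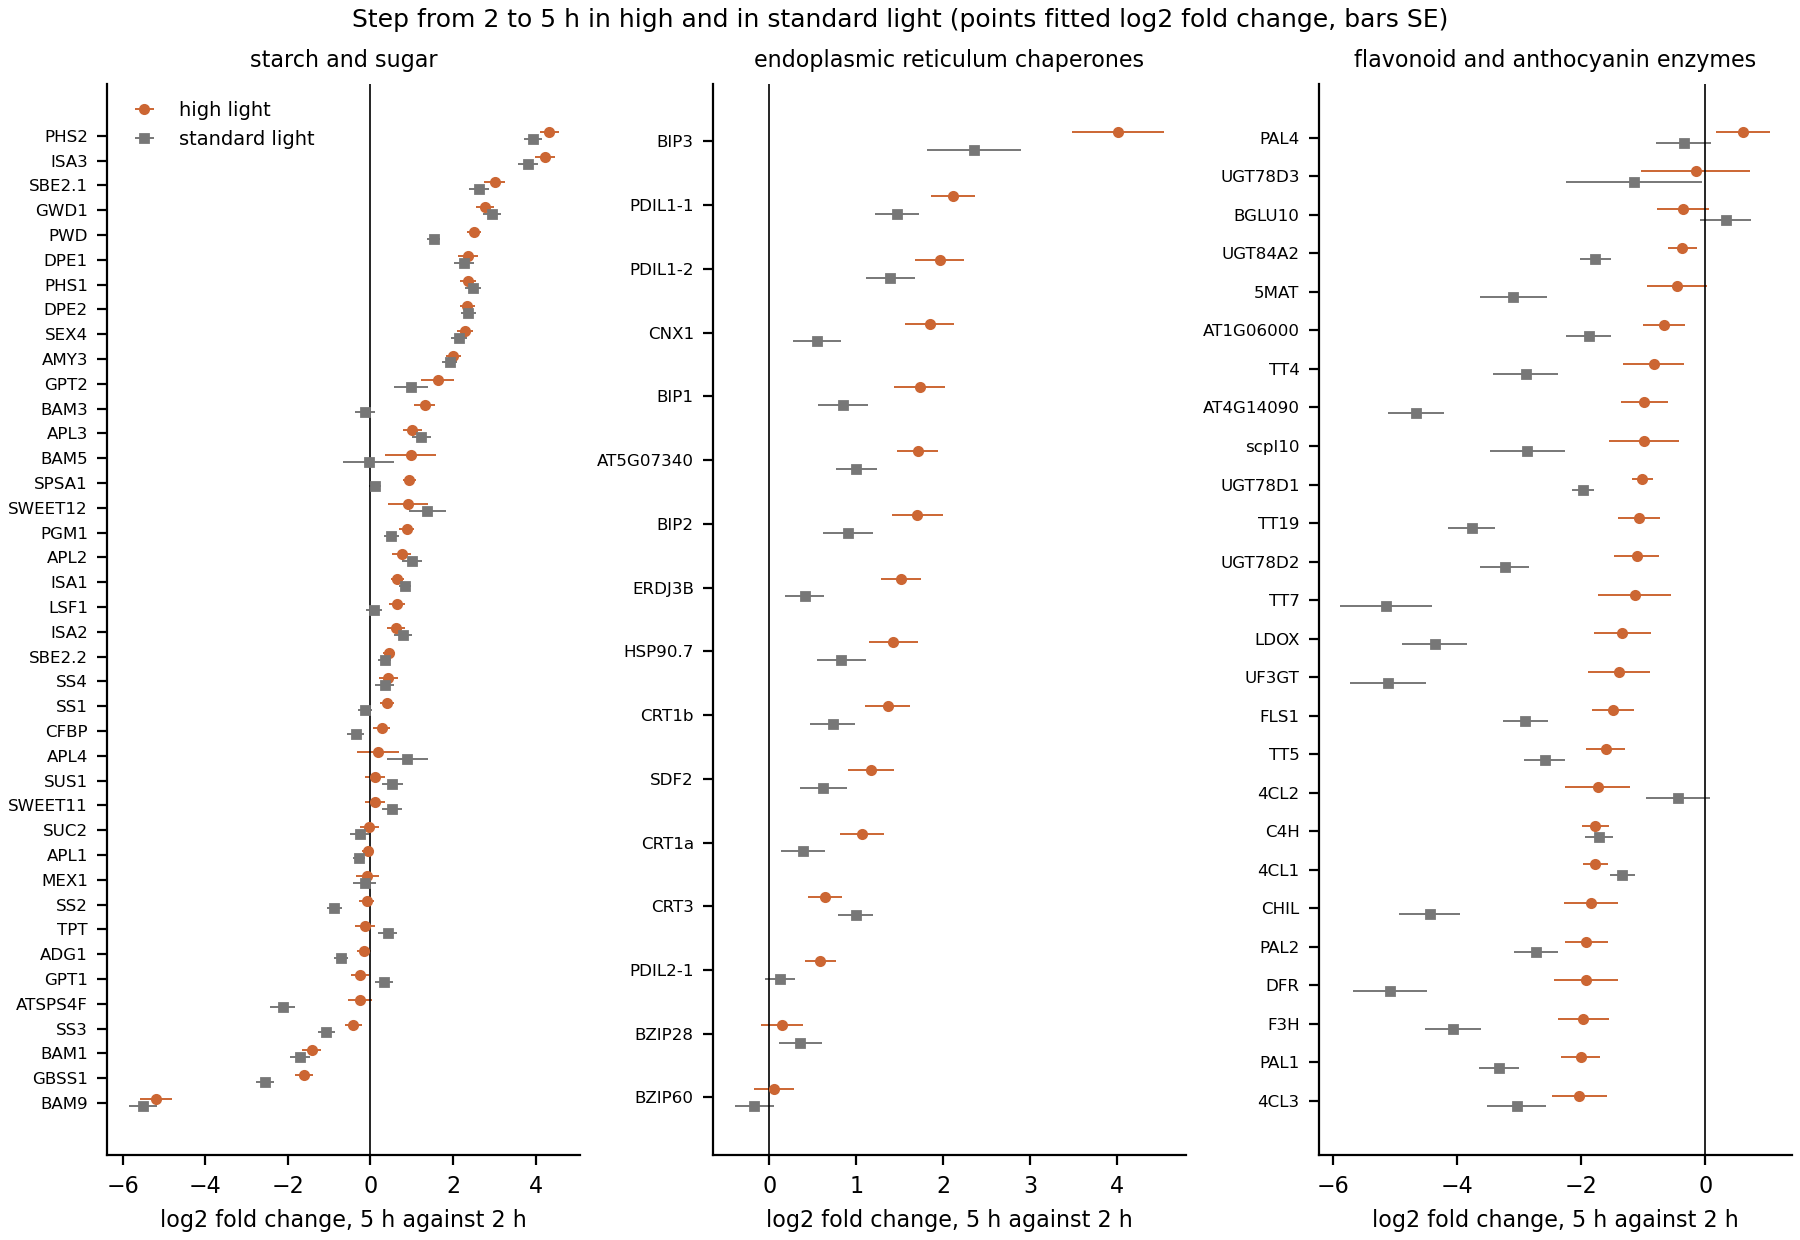
Fitted log2 fold change of 5 h against 2 h, with its SE as a bar, for each tested member of 3 lists, in orange for high light (T5H against T2H) and grey for standard light (T5L against T2L). The difference between the steps passed the test for 3 of 40 starch genes, 14 of 16 genes on the chaperone list lie further right in high light, and 22 of 26 flavonoid genes lie further left in standard light.

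Chaperones of the endoplasmic reticulum rose almost as a whole. Of 16 genes on the list, 14 rose and none fell, with a median of 1.47. The 2 that did not pass were BZIP28 (0.15 ± 0.24, adjusted p = 0.745) and BZIP60 (0.06 ± 0.23, adjusted p = 0.903), which are stress transcription factors and not chaperones. BIP3, an inducible luminal Hsp70, was at 1.34, 3.03 and 1.423 CPM after 2 h and 38.3, 38.0 and 17.1 CPM after 5 h (4.01 ± 0.53, adjusted p = 2.08e-05). BIP1 and BIP2, its constitutive relatives that share near-identical sequence, rose from 224 to 741 CPM (1.73 ± 0.29) and from 165 to 538 CPM (1.70 ± 0.29). CNX1, a calnexin that retains unfinished glycoproteins, was at 83.6, 140.1 and 90.2 CPM after 2 h and 523, 417 and 188 CPM after 5 h (1.85 ± 0.28, adjusted p = 4.57e-05). The disulfide isomerase gene PDIL1-1 was at 37.7, 51.6 and 40.4 CPM after 2 h and 236, 225 and 100.1 CPM after 5 h (2.12 ± 0.25, adjusted p = 1.6e-06). T5H replicate 3 was the lowest of the T5H libraries for 15 of the 16 genes. Of the 14 called genes 11 were free of overlap, beside 2798 of the 3166 loci called in all. Without T5H replicate 3, 14 genes again rose, with a median of 1.71. At standard light the same genes had a median of 0.78 over the same hours and 9 rose. The difference between the steps had a median of 0.64 and passed for 0 of the 16 genes by edgeR, with 5 at an unadjusted p under 0.05, 2 passing by DESeq2 and 0 by limma voom.

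Some genes for ribosome synthesis rose. NUC1, the nucleolin that acts in ribosomal RNA synthesis, was at 182, 225 and 205 CPM after 2 h and 937, 805 and 701 CPM after 5 h (2.00 ± 0.22, adjusted p = 4.68e-07). FIB2, a fibrillarin that acts in ribosomal RNA methylation, rose from 20.1 ± 2.64 to 69.4 ± 7.30 CPM (1.79 ± 0.30, adjusted p = 0.000149), and PUM24, a nucleolar processing factor, from 29.7 to 64.4 CPM (1.12 ± 0.24). Of 38 ribosomal protein and nucleolar genes, 7 rose (18.4%) and none fell, with a median of 0.48. Over all loci tested 8.87% rose, and 16.1% were called in either direction. T5H replicate 3 was the lowest T5H library for 33 of them, and without it 20 rose and the median was 0.65. With the share of ribosomal RNA as a covariate 11 rose. The 14 genes of the 20S proteasome had no call in either direction by edgeR, DESeq2 or limma voom, with 1 at an unadjusted p under 0.05 by edgeR (median 0.14). Without T5H replicate 3 or without T2H replicate 1, 1 of them rose.

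Temperature was not a variable of the study, yet known cold-response genes were among those that rose. Of 34 genes of the cold, drought and abscisic acid responses, 12 rose and 3 fell, with a median of 0.97. In standard light 18 rose and 6 fell over the same hours, with a median of 1.49, and 11 genes rose in both steps. The difference between the steps had a median of -0.06 and passed for none of the 34. CBF3, a transcription factor that switches on cold tolerance genes, was at 0.671, 0 and 0 CPM after 2 h and 31.2, 12.9 and 28.1 CPM after 5 h (6.62 ± 0.76, adjusted p = 5.62e-06). It was without a count in T2H replicates 2 and 3, and every T5H library was far above the T2H values. The fitted change rests on T2H replicate 1, the only T2H library with a count, and was 11.38 without it, a value that depends on the prior count and sets no bound. Known CBF targets rose as well. COR15A, which protects chloroplast membranes in the cold, was at 207, 81.4 and 101 CPM after 2 h and 742, 332 and 890.2 CPM after 5 h (2.33 ± 0.55, adjusted p = 0.00744). COR15B rose from 23.5 to 331 CPM (3.81 ± 0.68, adjusted p = 0.00107) and RD29A from 149.6 to 1286 CPM (3.10 ± 0.74, adjusted p = 0.00876). For all 3 targets T2H replicate 1 was the highest T2H library and T5H replicate 2 the lowest T5H library, and the groups did not overlap. ABF1, a bZIP factor of abscisic acid signalling, was at 3.02, 1.31 and 2.29 CPM after 2 h and 40.9, 36.2 and 37.4 CPM after 5 h (4.11 ± 0.37, adjusted p = 3.33e-08).

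Flavonoid enzyme genes fell or had no call. Of 26 enzyme genes, 14 fell and none rose, with a median of -1.24. PAL1, the entry enzyme of phenylpropanoid synthesis, was at 662, 545 and 395 CPM after 2 h and 204, 97.3 and 95.1 CPM after 5 h (-2.01 ± 0.31, adjusted p = 6.41e-05). F3H, an early flavonoid enzyme, was at 409, 335 and 235 CPM after 2 h and 123, 38.8 and 87.9 CPM after 5 h (-1.97 ± 0.41, adjusted p = 0.00246), and 4CL3 fell from 41.2 ± 12.2 to 9.82 ± 7.17 CPM (-2.03 ± 0.44, adjusted p = 0.00287). DFR, the first enzyme that is specific to anthocyanins and tannins, was at 115, 95.1 and 152 CPM after 2 h and 29.9, 20.5 and 45.6 CPM after 5 h (-1.92 ± 0.51, adjusted p = 0.0157), but leaving out T5H replicate 1 or 2 raised its adjusted p to 0.0738 or 0.0633, and leaving out T2H replicate 3 to 0.0573. TT4, the chalcone synthase at the start of the pathway, was at 556, 566 and 327 CPM after 2 h and 510.4, 141 and 161 CPM after 5 h. Its T5H replicate 1 lay among the T2H values and the change did not pass (-0.83 ± 0.49, adjusted p = 0.279), while its adjusted p was 0.00275 with no filter and 0.0252 without T5H replicate 1. Of the regulators, 3 of 15 fell and 1 rose (median -0.46). PAP1, the MYB activator of anthocyanin genes, was at 57.5, 27.9 and 45.4 CPM after 2 h and 20.1, 15.9 and 64.7 CPM after 5 h and did not pass (-0.40 ± 0.52, adjusted p = 0.67). MYBL2, a repressor of these genes, rose from 6.95 ± 0.897 to 12.7 ± 4.91 CPM although T5H replicate 3 did not exceed the highest T2H library (0.90 ± 0.23, adjusted p = 0.00883), with an adjusted p of 0.154 with only the 2 groups in the fit, 0.0584 without T2H replicate 2 and 0.101 without T5H replicate 1. The 4 regulators called became 2 without T2H replicate 1 and 2 without T5H replicate 2, and none was called with only the 2 groups in the fit.

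Light signalling genes fell more often than they rose. Of 27 genes, 10 fell and 4 rose, with a median of -0.49, and without T2H replicate 1 these counts were 8 and 1. HY5, the bZIP factor that activates light-induced genes, was at 37.2, 36.3 and 22.6 CPM after 2 h and 12.1, 12.3 and 13.4 CPM after 5 h (-1.35 ± 0.25, adjusted p = 0.000322). Its homologue HYH was at 78.3, 70.8 and 65.5 CPM after 2 h and 11.0, 10.5 and 17.1 CPM after 5 h (-2.49 ± 0.26, adjusted p = 2.21e-07). RUP2, which switches off the UV-B receptor, was at 17.37, 19.5 and 13.8 CPM after 2 h and 5.98, 4.89 and 5.70 CPM after 5 h (-1.61 ± 0.30, adjusted p = 0.000387). SPA4, of the complex that destroys HY5 in the dark, fell from 36.8 ± 4.42 to 12.8 ± 4.04 CPM (-1.55 ± 0.25, adjusted p = 7.94e-05).

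Several photoprotection genes were lower after 5 h than after 2 h. Of 32 photoprotection and carotenoid genes, 12 fell and 2 rose, with a median of -0.42. ELIP1, an early light-induced protein that binds freed chlorophyll, was at 307, 308 and 152 CPM after 2 h and 51.8, 11.3 and 49.7 CPM after 5 h (-2.77 ± 0.61, adjusted p = 0.00511). Its near-identical relative ELIP2 was at 305, 303 and 120.2 CPM after 2 h and 62.1, 7.66 and 37.8 CPM after 5 h (-2.75 ± 0.61, adjusted p = 0.00548), with an adjusted p of 0.051 with only the 2 groups in the fit. BCH2 and BCH1 make the hydroxylated carotenoids of the xanthophyll cycle. BCH2 was at 39.2, 27.0 and 25.9 CPM after 2 h and 2.75, 1.79 and 3.89 CPM after 5 h (-3.48 ± 0.40, adjusted p = 1.05e-06) and BCH1 at 106, 91.4 and 60.9 CPM after 2 h and 24.0, 22.9 and 25.0 CPM after 5 h (-1.84 ± 0.20, adjusted p = 5.22e-07). T2H replicate 3 was the lowest T2H library for all of these genes and remained above every T5H library. In standard light 18 of the 32 list members fell and 2 rose over the same hours (median -0.57), and 9 fell in both steps.

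Of 14 iron genes, 7 fell and none rose (median -0.60). FER1, the plastid ferritin that stores iron and responds to oxidative stress, was at 655, 544 and 366 CPM after 2 h and 224, 133 and 120.2 CPM after 5 h (-1.71 ± 0.27, adjusted p = 8e-05). FRO6, a leaf ferric reductase, fell from 26.9 ± 3.97 to 8.54 ± 2.94 CPM (-1.68 ± 0.33, adjusted p = 0.00115). The 7 calls became 4 without T5H replicate 1. Of 31 antioxidant enzyme genes, 7 fell and 2 rose (median -0.26). VTC2, the controlling enzyme of ascorbate synthesis, was at 1068, 1047 and 836 CPM after 2 h and 483, 308 and 362 CPM after 5 h (-1.36 ± 0.20, adjusted p = 3.23e-05). CAT3, a catalase under clock control, was at 268, 278 and 247 CPM after 2 h and 1378, 1413 and 395 CPM after 5 h and rose, with T5H replicate 3 well below the other T5H libraries (2.01 ± 0.30, adjusted p = 3.66e-05). APX1, the main cytosolic ascorbate peroxidase, was at 329.8, 289.7 and 215 CPM after 2 h and 372, 250.3 and 211 CPM after 5 h, and its groups overlapped (0.00 ± 0.20, adjusted p = 0.996). Over the same hours in standard light 15 of the 31 antioxidant genes fell and 2 rose (median -0.47), and 7 fell in both steps.

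Among heat shock genes 4 of 26 were called and among early stress factors 10 of 38, beside 16.1% of all loci tested. Of the 26 cytosolic heat shock genes, 3 fell and 1 rose (median -0.22), and without T5H replicate 2, 1 fell and 1 rose. HSP101, a disaggregating chaperone, was at 9.59, 14.3 and 8.77 CPM after 2 h and 3.82, 4.81 and 2.36 CPM after 5 h (-1.54 ± 0.35, adjusted p = 0.00301). HSP70 was at 14.8, 26.8 and 16.3 CPM after 2 h and 22.1, 12.5 and 13.1 CPM after 5 h, with overlapping groups (-0.27 ± 0.46, adjusted p = 0.749). BAG6, a co-chaperone with a calmodulin-binding site, was the gene that rose, from 3.75 to 15.6 CPM (2.06 ± 0.34, adjusted p = 9.54e-05). HSFA2, a stress-induced heat shock factor, was at 5.70, 3.44 and 4.11 CPM after 2 h and 1.23, 2.45 and 1.25 CPM after 5 h, and the difference did not pass (-1.421 ± 0.53, adjusted p = 0.0721), whereas the adjusted p was 0.0179 with DESeq2, 0.0241 with limma voom and 0.0409 with no filter. Of 38 early stress factors, 6 fell and 4 rose (median -0.10), and these became 1 and 4 without T2H replicate 1. Leaving out T5H replicate 1 gave 3 and 3, and leaving out T5H replicate 2 gave 4 and 2. The median was 0.13 without T2H replicate 1. ZAT12, a zinc finger factor of oxidative stress, was at 5.70, 2.75 and 2.85 CPM after 2 h and 4.85, 3.83 and 2.36 CPM after 5 h (0.00 ± 0.31, adjusted p = 0.999). DREB2B, a drought and heat factor, rose from 0.374 ± 0.405 to 4.95 ± 2.43 CPM (3.64 ± 0.58, adjusted p = 7.82e-05).

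Of 28 plastid protease and chaperone genes, 7 fell, 1 rose and 20 had no call (median -0.29), and without T2H replicate 1, 5 fell and none rose. FTSH8, a subunit of the thylakoid protease that degrades damaged D1 protein, was at 466, 381 and 299.5 CPM after 2 h and 167, 121 and 139.8 CPM after 5 h (-1.421 ± 0.19, adjusted p = 6.18e-06). FTSH1 fell from 269 ± 43.8 to 149 ± 14.9 CPM (-0.85 ± 0.15, adjusted p = 0.000317), with an adjusted p of 0.0522 with only the 2 groups in the fit. DEG2, a stroma-side protease of the thylakoid, fell from 96.7 ± 8.67 to 51.4 ± 8.42 CPM (-0.91 ± 0.17, adjusted p = 0.000548), and CLPP4, of the stromal Clp core, from 52.4 ± 7.01 to 28.7 ± 7.04 CPM (-0.88 ± 0.19, adjusted p = 0.0024). Standard light over the same hours had 17 of the 28 genes that fell and none that rose (median -0.67), and 6 fell in both steps.

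Few nuclear genes of the photosynthetic apparatus were called. Among 21 antenna genes 1 rose and 2 fell (median 0.00), among 31 nuclear photosystem and electron transport genes 1 rose and 1 fell (median -0.01), and among 22 Calvin-Benson genes 2 fell (median -0.07). These shares are near or under the shares over all loci. T5H replicate 3 was the lowest T5H library for 20, 28 and 19 of the members. Without it 6 antenna genes rose and 2 fell, and 7 nuclear photosystem genes rose and 1 fell, while 1 Calvin-Benson gene rose and 2 fell. Of the nuclear photosystem genes 1 was called without T2H replicate 1 or without T5H replicate 1, and of the Calvin-Benson genes 1 without T2H replicate 1 and 4 without T5H replicate 2. With the share of ribosomal RNA as a covariate 5 antenna, 6 nuclear photosystem and 7 Calvin-Benson genes were called. For the antenna gene LHCB1.4, whose reads may be shared with its near-identical copies, values were 137, 106 and 111 CPM after 2 h and 335, 297 and 139.9 CPM after 5 h (1.13 ± 0.28, adjusted p = 0.00633), with an adjusted p of 0.0617 with only the 2 groups in the fit. LHCB4.3, an antenna protein of strong light, went the other way with 111, 136 and 81.8 CPM after 2 h and 34.7, 41.3 and 17.39 CPM after 5 h (-1.81 ± 0.30, adjusted p = 0.000144). FNR2, which passes electrons from ferredoxin to NADP, was at 361, 473 and 321 CPM after 2 h and 930.0, 1247 and 782 CPM after 5 h (1.36 ± 0.19, adjusted p = 1.47e-05). RBCS1A, the Rubisco small subunit, was at 9412, 13618 and 7309 CPM after 2 h and 15962, 13610.5 and 3794 CPM after 5 h, with T5H replicate 3 the lowest of all (0.14 ± 0.34, adjusted p = 0.837).

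Counts of chloroplast-encoded genes called moved with T5H replicate 3, as did those of some nuclear lists, and with other settings. T5H replicate 3 was the highest T5H library for 41 of 44 chloroplast photosynthesis genes and for 27 of 32 genes of chloroplast gene expression. With it, 1 photosynthesis gene fell (median -0.12) and 8 gene expression genes fell (median -0.63), with none rising. Without it 26 and 27 fell, with medians of -0.77 and -1.21. With all libraries kept and the share of ribosomal RNA as a covariate, 7 and 20 fell and none rose. By limma voom 4 and 13 fell. With no filter 3 photosynthesis genes fell and 4 rose, and 14 gene expression genes fell and 1 rose, while none of either list was called with only the 2 groups in the fit. The photosynthesis count was 2 without T2H replicate 2, and the gene expression count was 5 without T2H replicate 3. The gene rpoB, for a subunit of the plastid-encoded RNA polymerase, was at 522, 539.9 and 681 CPM after 2 h and 266, 303 and 422 CPM after 5 h (-0.82 ± 0.19, adjusted p = 0.00338), and without T5H replicate 3 the log2 change was -1.05, adjusted p = 7.13e-05. Its adjusted p was 0.117 with only the 2 groups in the fit. The gene psbA, for the D1 protein, had a log2 change of -0.37 ± 0.40, adjusted p = 0.586 with all libraries and of -1.20, adjusted p = 0.0153 without T5H replicate 3.

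In chlorophyll metabolism 9 of 33 genes fell and 5 rose (median -0.31), and without T2H replicate 3, 7 fell and 2 rose. PORB, the light-dependent protochlorophyllide reductase, was at 21.2, 23.61 and 18.9 CPM after 2 h and 277, 355 and 181 CPM after 5 h (3.67 ± 0.23, adjusted p = 4.4e-11). CHLH, a subunit of magnesium chelatase and the first committed step, fell from 3202 ± 473 to 1650.2 ± 681 CPM (-0.96 ± 0.24, adjusted p = 0.00733), with an adjusted p of 0.161 with only the 2 groups in the fit. NYC1, which converts chlorophyll b for breakdown, rose from 54.1 ± 11.1 to 151 ± 42.4 CPM (1.48 ± 0.20, adjusted p = 8.35e-06). Of 19 genes of photorespiration and thiamine synthesis, 6 fell and 2 rose (median -0.43). The photorespiratory phosphatase gene PGLP1 was at 175, 140.4 and 174 CPM after 2 h and 36.7, 51.2 and 102 CPM after 5 h (-1.37 ± 0.26, adjusted p = 0.000572). The genes that rose were for thiamine. THI1, whose enzyme is consumed in making the thiazole ring, was at 946, 1093 and 926 CPM after 2 h and 2808, 2417 and 1623 CPM after 5 h (1.21 ± 0.22, adjusted p = 0.0003), with an adjusted p of 0.0547 with only the 2 groups in the fit. THIC, which makes the pyrimidine ring, was at 182, 197 and 162 CPM after 2 h and 659.7, 575 and 431 CPM after 5 h (1.62 ± 0.20, adjusted p = 2.72e-06).

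Nitrogen and sulphur assimilation had 7 of 20 genes that fell and 2 that rose (median -0.51). NIA1, a nitrate reductase, was at 176, 118 and 92.2 CPM after 2 h and 64.0, 36.4 and 22.5 CPM after 5 h (-1.64 ± 0.30, adjusted p = 0.000468). NRT1.1, the nitrate transporter and sensor, fell from 79.4 ± 12.1 to 32.3 ± 3.55 CPM (-1.29 ± 0.16, adjusted p = 3.73e-06), and AMT1;2, an ammonium transporter, from 45.4 ± 4.83 to 12.2 ± 3.22 CPM (-1.88 ± 0.30, adjusted p = 6.43e-05). GLN1;1, a cytosolic glutamine synthetase, rose, at 52.0, 45.1 and 36.4 CPM after 2 h and 403, 317 and 180.0 CPM after 5 h (2.75 ± 0.27, adjusted p = 1.05e-07). Of 40 genes of carbon starvation and energy signalling, 12 fell and 2 rose (median -0.46), which became 9 and 0 without T5H replicate 1. DIN9, a mannose 6-phosphate isomerase induced in the dark, fell from 12.5 ± 2.98 to 3.38 ± 0.947 CPM (-1.86 ± 0.36, adjusted p = 0.000705). The trehalose phosphate synthase homologue TPS8 was at 6.10, 3.85 and 6.56 CPM after 2 h and 0.490, 3.18 and 1.53 CPM after 5 h (-1.75 ± 0.41, adjusted p = 0.00462), with an adjusted p of 0.122 with only the 2 groups in the fit. BZIP11, a sugar-regulated factor, rose from 5.53 ± 0.667 to 18.4 ± 11.8 CPM (1.75 ± 0.44, adjusted p = 0.00719), and its adjusted p was 0.101 without T5H replicate 1.

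The same 3 h at standard light gave 4037 calls, 20.6% of the loci tested, with 1968 that rose (10%) and 2069 that fell (10.5%). This pair of groups shares no library with T2H and T5H. Of the loci that rose in high light, 1013 also rose in standard light, which is 58.2% of the high-light list and 51.5% of the standard-light list. Of those that fell, 839 fell in both, 58.9 and 40.6% of the lists. By these calls 7 loci rose in high light and fell in standard light, and 7 did the reverse. The 7 morning clock genes that fell in high light also fell in standard light, and all 9 evening clock genes that rose did so in both. PRR5 was at 0, 1.31 and 0.633 CPM after 2 h and 116, 118 and 134 CPM after 5 h in standard light (7.30 ± 0.36, adjusted p = 1.15e-12). FKF1 held no count in the T2L libraries and averaged 68.6 CPM in T5L, at least 236-fold higher against a floor of 3 counts per library.

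The difference between the steps, tested directly, passed for 155 loci (0.790%), 118 of them with a higher change in high light (0.601%) and 37 with a lower one (0.189%). This count moved with single libraries. It was 777 without T5H replicate 3 and 355 without T2L replicate 3. It was 32 and 56 without T2H replicates 1 and 3, 84 without T5H replicate 1, 73 and 35 without T2L replicates 1 and 2, and 64, 40 and 24 without T5L replicates 1, 2 and 3. In flavonoid synthesis the log2 change was more negative in standard light for 22 of 26 genes, with a median difference of 1.41. LDOX, a late anthocyanin enzyme, was at 107, 143 and 159 CPM after 2 h and 56.5, 36.4 and 69.5 CPM after 5 h in high light and at 161, 170.3 and 247 CPM after 2 h and 4.64, 9.33 and 14.0 CPM after 5 h in standard light. Its T5L libraries lay below every other library of the 4 groups, and the difference was 3.03 ± 0.66, adjusted p = 0.0418. In high light alone the log2 change of LDOX was -1.34 ± 0.46, adjusted p = 0.0569, with an adjusted p of 0.0371 with DESeq2, 0.0341 with limma voom, 1.35e-08 with no filter, 0.0143 with only the 2 groups in the fit and 0.0415 with nuclear protein-coding loci only. UF3GT, which adds a sugar to anthocyanins, differed by 3.73 ± 0.77, adjusted p = 0.0336, and TT19, a carrier of anthocyanins to the vacuole, by 2.70 ± 0.48, adjusted p = 0.0155. Of these, TT19 passed in all 20 alternatives, UF3GT in 10 and LDOX in 9. DFR differed by 3.16 ± 0.73, adjusted p = 0.0542, which did not pass. The light-signalling genes RUP2 (3.26 ± 0.49, adjusted p = 0.00153) and HY5 (1.68 ± 0.36, adjusted p = 0.028) also fell less in high light, RUP2 in all 20 alternatives and HY5 in 12. NEET, a plastid iron-sulphur protein, was at 30.1, 57.3 and 59.1 CPM after 2 h and 44.4, 39.9 and 49.5 CPM after 5 h in high light and at 53.6, 64.9 and 23.65 CPM after 2 h and 4.49, 4.41 and 5.17 CPM after 5 h in standard light (3.20 ± 0.44, adjusted p = 0.00102), and its difference passed in all 20.

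In the other direction, LHY fell further in high light, with T5L libraries at 14.9 to 23.2 CPM against 4.73 to 7.51 CPM in T5H (-1.39 ± 0.34, adjusted p = 0.0486), a difference that passed in 9 of the 20 alternatives. ERS1, an ethylene receptor, fell in high light (-1.10 ± 0.24, adjusted p = 0.00237), with an adjusted p of 0.087 with only the 2 groups in the fit. Its value in standard light was 0.55 ± 0.23, adjusted p = 0.0928, which did not pass, and the difference of -1.66 ± 0.34, adjusted p = 0.0205 held in 15 alternatives. XTH4, a cell wall enzyme of the xyloglucan family, fell in high light (-1.10 ± 0.22, adjusted p = 0.000942). Its value in standard light was 0.39 ± 0.22, adjusted p = 0.217, which did not pass, and the difference of -1.49 ± 0.31, adjusted p = 0.0228 held in 14 alternatives. ASN1, the asparagine synthetase of carbon shortage, rose in standard light (2.15 ± 0.49, adjusted p = 0.00361) and was at 6.64, 0.826 and 3.56 CPM after 2 h and 1.76, 1.55 and 2.36 CPM after 5 h in high light without passing (adjusted p = 0.219, but 0.00728 with no filter and 0.0115 without T2H replicate 2), with a difference of -3.15 ± 0.72, adjusted p = 0.0471 that held in 8.

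**Figure D5:**
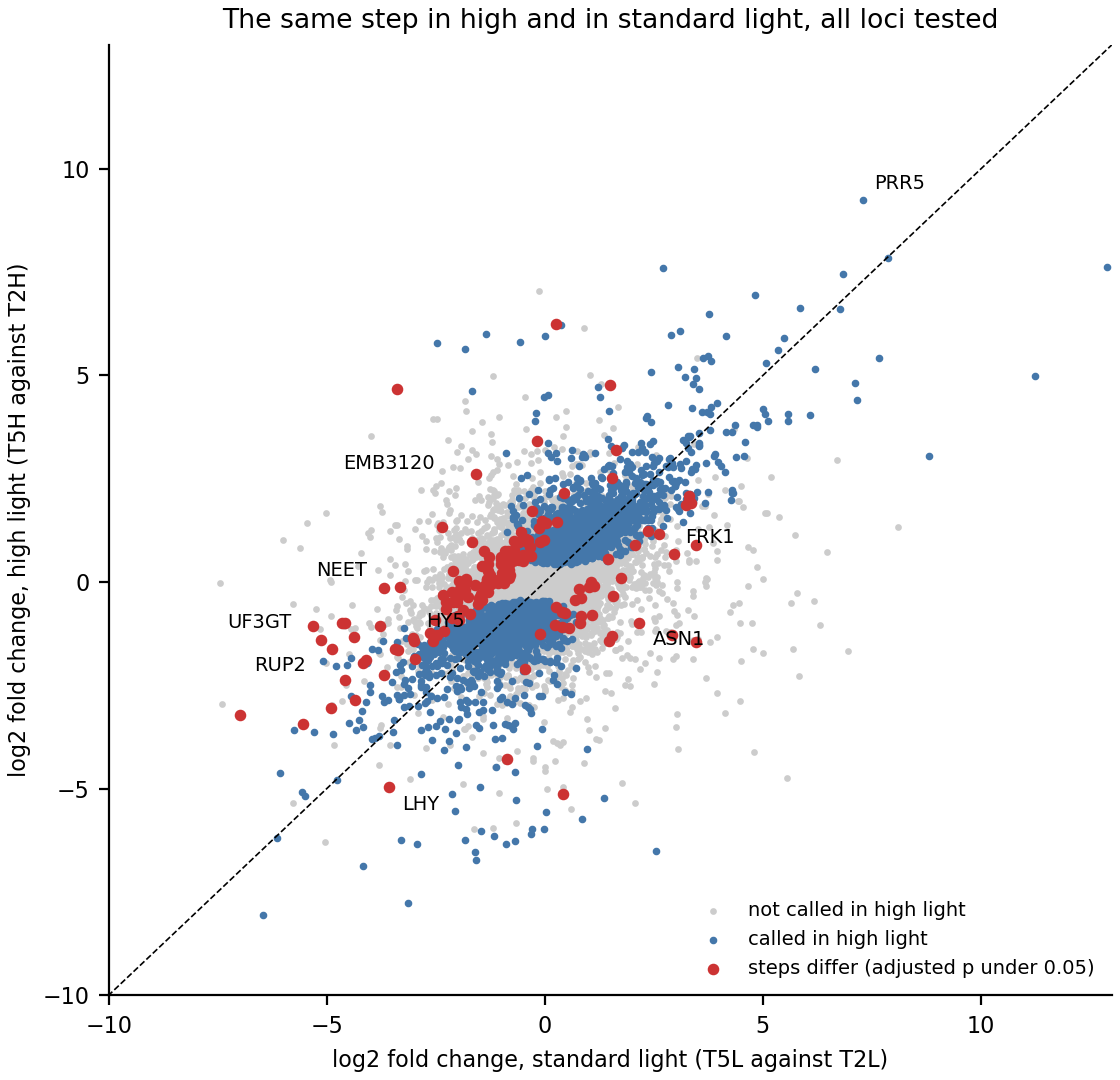
Fitted log2 fold change of 5 h against 2 h in standard light (horizontal axis) and high light (vertical axis) for the 19626 loci tested, blue where the high-light change passed the test, red for the 155 loci at which the steps differed, with the dashed line marking equal values. Most called loci lie in the lower left and upper right, PRR5 at 7.30 and 9.26, and genes such as RUP2 and UF3GT lie above the line on the left.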

How the data were processed

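RNA of rosette shoots was sequenced as stranded, ribosomal RNA-depleted total RNA, in single-end reads of 75 bases. The authors deposited raw read counts for each of 33341 loci, made with featureCounts 1.5.0-p1 over 1 span per gene, reverse-stranded, per the file headers. The submitters' processing notes also name edgeR, Subread 1.5.0, FastQC 0.11.7, SAMtools 1.3.1 and Trim Galore 0.4.4. No source used here states the genome build, and 32908 of 32909 matched loci lie at their RefSeq TAIR10.1 positions. The authors also deposited a table of their own comparisons, with log2 values and adjusted p-values, from which gene names alone were read.

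Samples were grouped by their labels. All 21 libraries, with total counts of 6545003 to 31449700, entered 1 edgeR 4.0.16 quasi-likelihood fit in R 4.3.3, with TMM scaling and filterByExpr, and 7 groups of 3. From the deposited counts log2 fold changes, their SE (the change divided by the root of F) and p-values were computed, and p-values were adjusted by Benjamini-Hochberg over the 19626 loci tested. A locus was called at an adjusted p under 0.05. CPM values use TMM-scaled library sizes. Every alternative p in the text is an edgeR value unless DESeq2 1.42.0 or limma 3.58.1 is named. The procedure was tested on simulated data. Counting intervals and floors cover counting error only.

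Members, gene lists and tests were chosen with earlier results of these data known. Named genes are protein-coding genes with a symbol, at least 5 CPM and no overlap, the 15 with the largest rise and the 15 with the largest fall; up to 4 called members per list; a set of well-known genes; and the 6 largest differences between the steps in each direction. The genes GWD1, PWD, SEX4, DPE2, GBSS1, BAM1, BIP1, BIP2, BZIP28, BZIP60, CHLH, LUX and CYCB1;2 were added after their values were seen. Alternatives were DESeq2, limma voom, other size factors, no filter, only the groups compared, nuclear protein-coding loci, ribosomal RNA share as a covariate, a replicate block, leaving out each library, a 2-fold minimum and, for promoters, a window of the 250 bases before the start alone.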

Additional observations from a re-analysis of the deposited data

Results flagged for a closer look

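For 16 of the named genes the change from 2 to 5 h differed between high and standard light by the test of the difference itself (edgeR, Benjamini-Hochberg over all loci). The 6 largest differences in each direction were named because they passed this test, so the count follows from the choice. Over all 19626 loci tested, 155 passed (0.790%). Calls were lost in 0 to 13 of the 20 alternatives, and none changed sign. RUP2, NEET and TT19 were called in all 20, and EMB3120 in 7. The change was higher in high light, on the log2 scale, for RUP2 by 3.26, AMT1;2 by 2.21, HY5 by 1.68, EMB3120 by 4.18, UF3GT by 3.73, NEET by 3.20, LDOX by 3.03, TT19 by 2.70 and PWD by 0.97. It was lower for LHY with -1.39, ASN1 with -3.15, FRK1 with -2.29, ARCK1 with -1.91, PIRL4 with -1.81, ERS1 with -1.66 and XTH4 with -1.49. AMT1;2 was at 39.9, 48.9 and 47.5 CPM after 2 h and 15.3, 12.2 and 8.90 CPM after 5 h in high light and at 31.8, 21.1 and 33.2 CPM after 2 h and 0.784, 2.77 and 1.417 CPM after 5 h in standard light. FRK1, a receptor kinase used as a marker of defence, was at 4.63, 3.65 and 4.35 CPM after 2 h and 7.70, 5.87 and 6.40 CPM after 5 h in high light and at 1.21, 2.00 and 1.06 CPM after 2 h and 9.06, 14.0 and 10.9 CPM after 5 h in standard light. The T2L libraries held 4.57 to 17.2% ribosomal RNA and the T5L libraries 2.07 to 4.55%, and with this share as a covariate 397 loci differed between the steps in place of 155.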

How the results depend on the processing

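The 3166 loci called between T2H and T5H became 1266 when only the 2 groups compared entered the fit and 1827 with a 2-fold minimum, and 2197 to 4551 when 1 library was left out. The 4037 of T5L against T2L became 4305 with only the groups compared, 2356 with a 2-fold minimum and 2875 to 3913 with 1 library left out. The 155 differences between the steps became 514 with DESeq2, 707 with no filter, 24 with only the groups compared, 397 with ribosomal RNA share as a covariate, and 24 to 777 with 1 library left out. The other planned settings kept these counts within 1.5 times. Of 165 named genes 143 were called, against 16.1% of all loci tested. Many were named because they were called with large changes, so this share was set by the choice. Of the 143, 100 were called in all 14 alternatives and 43 not in at least 1, 32 of these with only the groups compared. None reversed. With only the groups compared, the calls fell to 7 of 14 in light signalling, 5 of 9 in antioxidant enzymes, 5 of 14 in chlorophyll metabolism, 2 of 14 in starvation signalling, 3 of 8 in plastid proteases, 4 of 7 in iron, 4 of 8 in photorespiration and thiamine, 4 of 10 in early stress, 2 of 4 in heat shock, 4 of 8 in jasmonate and salicylate, 2 of 5 in glucosinolates, 4 of 7 in growth hormones, 1 of 2 in nuclear photosystem genes, 0 of 4 in flavonoid regulators, 0 of 2 in the Calvin-Benson cycle, 0 of 1 in chloroplast photosynthesis and 0 of 8 in chloroplast gene expression. With no filter the calls were 7 in heat shock, 14 in jasmonate and salicylate, 8 in glucosinolates, 11 in growth hormones and 1 in the Calvin-Benson cycle. Nuclear photosystem genes had 4 calls by DESeq2 and 4 by limma voom, Calvin-Benson genes 4 and 5, and chloroplast photosynthesis genes 3 by DESeq2 and 2 with a replicate block. The fitted fold change, not on the log2 scale, of 17 called genes given with values moved by over 1.5 times in at least 1 of the 14 alternatives. Their log2 changes had ranges of 8.87 to 10.24 for PRR5, 7.12 to 8.77 for FKF1, 5.99 to 11.38 for CBF3, 5.34 to 6.86 for ELF4, 4.54 to 6.58 for WCRKC1, 4.16 to 5.88 for TPS03, 3.00 to 4.93 for DREB2B, 3.40 to 4.86 for COR15B, 2.75 to 3.87 for RD29A, 1.12 to 2.07 for BZIP11, -6.01 to -4.55 for BAM9, -4.62 to -2.69 for CDF2, -4.08 to -2.57 for UGT84A1, -3.74 to -2.61 for XTH6, -3.45 to -2.31 for ELIP2, -2.86 to -1.78 for 4CL3 and -2.77 to -1.14 for TPS8. The causes were not tested.

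Deviations of same-numbered T2H and T5H libraries correlated by 0.0006, 0.171 and 0.330 for replicates 1, 2 and 3. Whether same-numbered libraries were handled together was not tested, and the main fit treats them as unpaired. With a replicate block the counts were 3083, 3935 and 109.

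In the 250 bases before the start alone, the share of promoters of genes that rose and fell was 7.46 and 1.29% for the evening element, 8.03 and 11.2% for the G-box, 2.54 and 0.858% for the telo-box (2.61% of all promoters), 0.578 and 0.357% for the heat shock element, 25.8 and 28.9% for the W-box and 19.8 and 12.4% for site II. Depth limits genes near 3 counts per library.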

Other observations

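Several genes with large changes belong to none of the lists. WCRKC1, a plastid thioredoxin, was at 0.335, 0 and 1.11 CPM after 2 h and 9.66, 22.2 and 19.9 CPM after 5 h (5.19 ± 0.53, adjusted p = 7.16e-07). OEP16-1, a channel protein of the outer plastid envelope, was at 50.8, 51.4 and 38.3 CPM after 2 h and 1035, 721 and 609.8 CPM after 5 h (4.07 ± 0.26, adjusted p = 4.82e-11). TPS03, a terpene synthase, rose from 0.666 ± 0.613 to 18.9 ± 1.90 CPM (4.81 ± 0.62, adjusted p = 1.23e-05). Among the falls, UGT84A1, a glucosyltransferase of phenylpropanoids, was at 23.61, 9.09 and 6.64 CPM after 2 h and 0.882, 0.652 and 2.64 CPM after 5 h (-3.34 ± 0.65, adjusted p = 0.000888), and XTH6, a cell wall enzyme, was at 44.7, 58.5 and 44.7 CPM after 2 h and 1.57, 8.32 and 7.79 CPM after 5 h (-3.14 ± 0.44, adjusted p = 4.96e-05).

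Hormone and defence lists held calls in both directions, 8 of 36, 5 of 23 and 7 of 36 members in the lists that follow, beside 16.1% of all loci. Of 36 jasmonate and salicylate genes, 3 rose and 5 fell (median -0.40), and without T2H replicate 1, 4 rose and none fell. PR5, a defence protein, rose from 49.0 ± 10.11 to 129.8 ± 71.3 CPM (1.41 ± 0.30, adjusted p = 0.00195). Of 23 glucosinolate genes 2 rose and 3 fell (median 0.22), 6 and 3 without T5H replicate 3 and 2 and 1 without T2H replicate 1. IGMT4, an indole glucosinolate methyltransferase with near-identical neighbours, rose from 15.3 ± 1.62 to 102 ± 26.3 CPM (2.74 ± 0.28, adjusted p = 1.75e-07). Of 36 genes of growth hormones 2 rose and 5 fell (median -0.43), and IAA2, an auxin-induced repressor, fell from 46.8 ± 13.7 to 17.1 ± 7.70 CPM (-1.47 ± 0.27, adjusted p = 0.000483).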
